A study of Mus musculus with 24 samples.

Results

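Akap1, the nuclear respiratory factor gene Nrf1 and 8 further regulators of mitochondrial biogenesis were followed in the colon and liver of mice given 2 high-fat diets. The 10 genes were Akap1, Nrf1, Tfam, Ppargc1a, Ppargc1b, Esrra, Gabpa, Tfb1m, Tfb2m and Polrmt, taken as every probe whose gene name on the array equals the symbol. All 10 were on the array, with 23 of its 41174 probes. Akap1 and Nrf1 were picked because 1 probe of each passed the study's threshold between the diets in the colon, as fitted here. The study's own list of colon genes at that threshold names neither gene. Because of that choice, the colon diet values of Akap1 and Nrf1 are a description. Within a gene the probe with the highest mean intensity was taken as the main probe, and the other probes are given beside it.

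All mice were female C57BL/6 offspring killed at 12 weeks of age. Their mothers had eaten fat-rich chow with little selenium and folate from 7 days before mating until weaning, so every group shares that early exposure and a high-fat diet after it. After weaning, HF-low-low mice stayed on the low diet and HF-low-suf mice changed to fat-rich chow in which selenium and folate were sufficient. Whole colon and whole liver of 6 mice per diet gave 4 groups of 6 arrays (colon HF-low-low, colon HF-low-suf, liver HF-low-low and liver HF-low-suf), 24 arrays in all, and each mouse gave both tissues. Each array compared 1 mouse's RNA in Cy3 with a Cy5-labelled pool of intestine and liver RNA, taken from all mice according to the methods. Whether these were the same 12 mice is not stated. All values are log2 ratios of mouse to pool, so 0 is the level of the pool and the levels of different probes cannot be set against each other.

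A cell makes new mitochondria by turning on nuclear genes and mitochondrial DNA together. The coactivators PGC-1alpha (Ppargc1a) and PGC-1beta (Ppargc1b) bind no DNA themselves and work through factors such as nuclear respiratory factor 1 (Nrf1), the ETS factor GABP, also called NRF-2, whose DNA-binding subunit is Gabpa, and the estrogen-related receptor alpha (Esrra). These factors switch on genes of the respiratory chain and the proteins that read mitochondrial DNA, which are the packaging and transcription factor Tfam, the RNA polymerase Polrmt, the transcription factor Tfb2m and its relative Tfb1m, a methyltransferase of mitochondrial ribosomal RNA. Akap1 has another role: it holds protein kinase A, phosphatases and messenger RNA at the outer mitochondrial membrane. The Nrf1 symbol here is the nuclear respiratory factor, not the stress factor Nfe2l1, which is sometimes given the same name.

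The 2 probes by which Akap1 and Nrf1 were picked are shown because the diet values of both genes turn on them. Both have at least 1 sense reading frame without a stop codon, which does not by itself place them in coding sequence, and their place in exons was not analysed here because no annotation of build mm7 was used. The Akap1 probe lies at chr11:88944134-88944193 and the Nrf1 probe at chr6:30048287-30048346 of build mm7, on the minus and the plus strand.
Akap1 probe A_51_P233825: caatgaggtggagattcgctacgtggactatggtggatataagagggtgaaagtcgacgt
Nrf1 probe A_52_P376269: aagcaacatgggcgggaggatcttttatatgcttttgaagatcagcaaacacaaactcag
The main probes of both genes lie elsewhere in the genes, at chr11:88940387-88940446 for Akap1 and chr6:30084667-30084726 for Nrf1.

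RefSeq promoter windows of 300 bases (build GRCm38.p6, 250 bases before the start and 50 from it) were found for 9 of the 10 genes, 12 windows in all. They are shown where they carry a motif of a factor in the group. The letters GCGCANGCG, of the NRF-1 site, searched on both strands, occurred in the windows of 4 of the 9 genes, Akap1 (1 of its 3 windows), Esrra, Polrmt and Tfb2m, and in 6.25% of all 32851 windows. With a further C at the end they occurred in those of 2, Akap1 and Polrmt, and in 4.6% of all windows, and these are shown. CCGGAAGT, a GABP site, occurred in that of Tfam and in 3.89% of all windows. In the first 3 sequences that follow, capitals mark GCGCANGCG or CCGGAAGT, and the former gives 2 overlapping matches on the other strand in Polrmt, which reach past the start.
Akap1 promoter, chr11:88864627-88864686, minus strand: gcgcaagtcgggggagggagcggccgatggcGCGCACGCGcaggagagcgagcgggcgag
Polrmt promoter, chr10:79746568-79746631, minus strand: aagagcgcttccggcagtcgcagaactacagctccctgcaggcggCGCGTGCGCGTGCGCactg
Tfam promoter, chr10:71238065-71238134, minus strand: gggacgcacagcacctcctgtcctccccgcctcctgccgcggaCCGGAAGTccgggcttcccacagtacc
The ERR site TCAAGGTCA was in none of the 12 windows and in 0.423% of all windows, and AAGATGGCG, of the YY1 site, was in that of Gabpa and in 1.4%. Followed by GC, the YY1 letters were in none and in 0.633%. The Sp1 site GGGCGG was in the windows of 6 of the 9 genes and in 35.7% of all windows, and the CRE site TGACGTCA was in none and in 1.79%. A match is a description of the letters and not of binding.

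The main probe of Tfam differs from its other probes. It is 78.3% G and C, against 45% for the other 2 Tfam probes, and 39 of its 60 bases match the promoter window as 1 run, at positions -146 to -108 from the RefSeq start. The array describes this probe by a record that holds a testis-specific and a mitochondrial form of the protein. The run is in capitals in the next sequence, shown because most of the main probe lies before that start.
Tfam promoter, chr10:71238145-71238199, minus strand: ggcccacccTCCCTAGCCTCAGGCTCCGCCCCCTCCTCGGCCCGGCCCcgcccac
Tfam levels are therefore also given from probe A_51_P493720.

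Signal set how much the probes could show. Per array, 26.1% to 71.9% of spots passed the scanner software's call of well above background in Cy3, and median Cy3 brightness was 3.77 to 7.22 times the local background. That call was met on all 24 arrays by 10 of the 23 probes, on some by 12 and on none by 1, the second Tfb1m probe. The tissues carried the markers of their labels: hepatocyte markers averaged between 1.43 and 2.30 in the livers and between -3.89 and -2.91 in the colons, and colon epithelial markers between 0.31 and 1.09 in the colons and at most -3.17 in the livers. Some libraries stood apart. Colon HF-low-suf replicate 5 had a median Cy5 brightness of 18.2 times the local background and 71.9% of spots well above background in Cy3, both the highest of the arrays. In liver HF-low-suf replicate 1 the brown fat markers Ucp1 and Cidea averaged 4.90 and both were well above background, while the group's median was -0.21, and 5 adipose markers averaged 1.61, the highest of the livers. In the colons those adipose markers averaged 0.22 to 2.26. In liver HF-low-suf replicate 2 the 7 skeletal muscle markers averaged -2.64 against a median of -4.19. The group means of these markers lay between -4.75 and -4.07, below the pool in both tissues, and the make-up of the pool was not tested. Liver HF-low-suf replicate 4 had 8.75% of its spots flagged as outliers and a Cy5 brightness of 12.7 times background. Apart from that liver and colon HF-low-suf replicate 5, the Cy5 brightness was 5.43 to 7.62 times background.

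The clearest differences lay between the tissues. The mean of both liver groups was compared with the mean of both colon groups with limma over all probes, with the mouse as a random block, and P values were adjusted by Benjamini-Hochberg. Of all 41174 probes, 19.4% were higher and 19.0% were lower in the liver at an adjusted P below 0.05. Of the 10 main probes, 4 were higher (Akap1, Gabpa, Tfb1m and Polrmt), 3 were lower (Ppargc1a, Ppargc1b and Esrra) and 3 did not pass (Nrf1, Tfam and Tfb2m). The scaling mattered for the rises: with each array's ratios centred on their median in place of loess, 4521 probes were higher and 9226 lower over the whole array, against 7971 and 7812 with loess, and of the 4 rises only that of Tfb1m passed, while all 3 falls did. The signals processed by Feature Extraction gave 7573 higher and 11964 lower and moved the median of all probes to -0.19 from 0.02, and relative to that median the 7 genes kept their directions. Without the HF-low-suf mice 1 and 2 the same 7 main probes passed, an alternative added after seeing the data. Whole tissues were measured, so fewer cells of a type and less RNA per cell cannot be told apart.

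The coactivators and their receptor partner were lower in the liver. Ppargc1a ranged from -1.15 over a median of 0.22 to 0.86 in the 12 colons and from -1.24 over -0.96 to -0.27 in the 12 livers. Only 1 colon, HF-low-low replicate 4 at -1.15, lay within the range of the livers. The liver was lower by 1.08 on the log2 scale, that is 2.12-fold (SE 0.16, limma adjusted P = 1.72e-06), in 11 of 12 mice, and a second probe, well above background in 6 of the 12 livers, fell by 0.92 in 12 of 12 mice. Its relative Ppargc1b ranged from -0.68 over 0.17 to 0.69 in the colons and from -1.88 over -1.27 to -0.38 in the livers. The ranges met through 1 liver, HF-low-suf replicate 4 at -0.38, which lay above 2 colons. The liver was 2.57-fold lower (log2 -1.36, SE 0.17, limma adjusted P = 1.81e-07), in 12 of 12 mice, and a second probe gave -1.36. That probe was well above background in 9 of the 12 livers and the third, at -1.67, in 3, so the size of the latter rests on livers mostly near background.

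Esrra, the nuclear receptor through which the PGC-1 coactivators act on respiratory genes, separated the tissues completely. It ranged from -0.06 over 0.26 to 0.61 in the colons and from -1.17 over -0.82 to -0.44 in the livers, so that every liver was below every colon. The difference was -1.12 (SE 0.08, 2.18-fold, limma adjusted P = 1.14e-11). A dimmer second probe, well above background in 6 of the 12 livers, gave -0.50 (limma adjusted P = 0.016), with 10 of 12 mice lower.

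Of the 4 genes that read mitochondrial DNA or its ribosomal RNA, Tfb1m and Polrmt were higher in the liver on their main probes, as were Gabpa and Akap1, though with median centring Gabpa (0.16), Akap1 (0.28) and Polrmt (0.02) no longer passed. Tfb1m ranged from -0.75 over -0.41 to -0.21 in the colons and from 0.18 over 0.63 to 0.82 in the livers. No colon reached a liver. The liver was 2.03-fold higher (log2 1.02, SE 0.08, limma adjusted P = 5.93e-11). Polrmt, the polymerase itself, was measured by 1 probe and ranged from -0.55 over -0.24 to 0.07 in the colons and from 0.03 over 0.18 to 0.60 in the livers. It was 1.36-fold higher in the liver (log2 0.45, SE 0.08, limma adjusted P = 3.94e-05), in 12 of 12 mice. Gabpa was 1.48-fold higher (log2 0.57, SE 0.09, limma adjusted P = 3.99e-06), from -0.53 over -0.37 to 0.29 in the colons and from -0.00 over 0.28 to 0.51 in the livers. Colon HF-low-low replicate 1 was the single colon above 0. The other Gabpa probes, well above background in 9 and 6 of the 12 livers, gave 0.33 and 0.44, both with a limma adjusted P below 0.05.

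Akap1 was 1.63-fold higher in the liver (log2 0.70, SE 0.11, limma adjusted P = 3.89e-06), in 12 of 12 mice. Its 12 colons ranged from -0.87 over -0.26 to 0.08 and its 12 livers from -0.08 over 0.40 to 1.01, with the lowest liver inside the colon range. The probe by which it was picked gave 0.69 (SE 0.16, limma adjusted P = 9.80e-04) with 9 of 12 mice higher, and the third, dimmer probe 0.42 (limma adjusted P = 0.10). By diet, the main probe gave 0.97 in the HF-low-low and 0.43 in the HF-low-suf mice and the picked probe 1.16 and 0.21. This split contains the colon diet contrast and was not tested. The exact sign-flip test over the 12 mice gave 0.00049, the smallest P it allows, for the main probes of Akap1, Gabpa, Tfb1m, Polrmt, Esrra and Ppargc1b. For Ppargc1a the sign-flip P was 0.00098, for Nrf1 0.022, for Tfb2m 0.025 and for Tfam 0.52, all without adjustment.

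**Figure D1:**
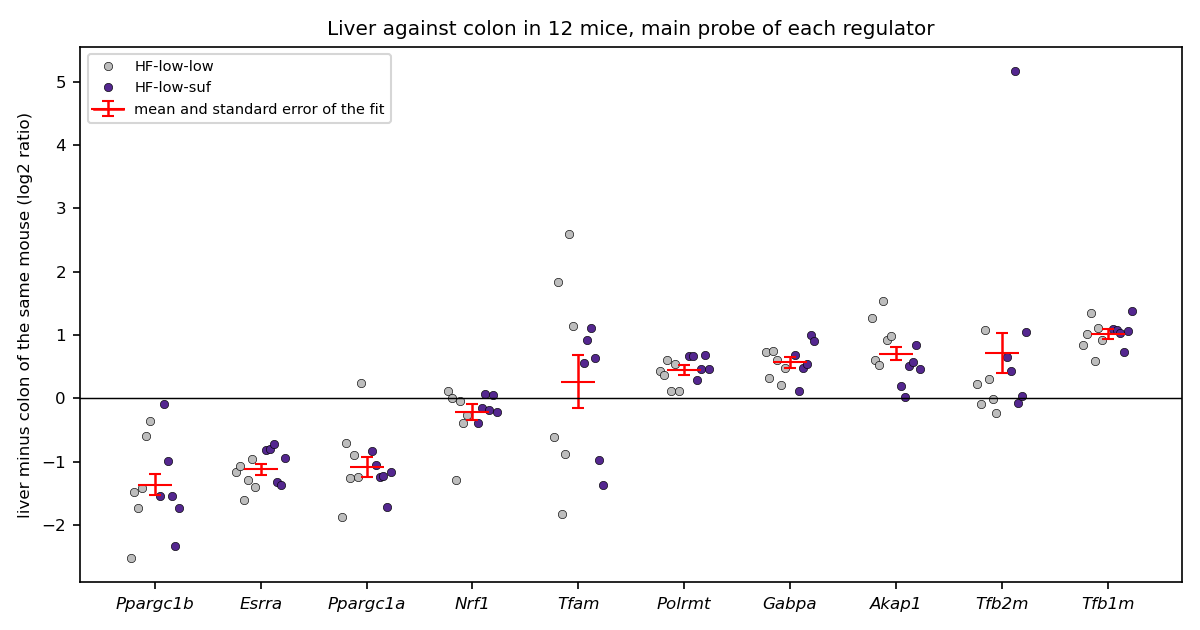
Liver minus colon log2 ratio of each of the 12 mice, by gene, for the main probe; grey points are HF-low-low and purple points HF-low-suf mice, red bars the mean and standard error of the fit over all arrays, after loess. Esrra and Ppargc1b lie below 0 and Akap1, Gabpa, Polrmt and Tfb1m above 0 in all 12 mice (with median centring Akap1, Gabpa and Polrmt did not pass the test), and 1 Tfb2m value stands at 5.17.

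With limma, Nrf1, Tfam and Tfb2m gave no call on their main probes after adjustment. Nrf1 was low on the array: the main probe was well above background in Cy3 on 8 of the 12 colon arrays and 3 of the 12 liver arrays. Its difference was -0.22 (SE 0.13, limma adjusted P = 0.19), and the other probe gave 0.25 (SE 0.13, limma adjusted P = 0.14), so that the probes did not share a direction. With the signals processed by Feature Extraction the main probe gave -0.71 and passed. The very bright Tfam main probe ran from -2.36 to 1.26 in the colons and from -2.50 to 1.53 in the livers, and its difference of 0.26 (SE 0.42) was smaller than its error. Of the other Tfam probes, A_51_P493720 gave 0.20 (SE 0.08, limma adjusted P = 0.058), and A_52_P351785, well above background in 6 of the 12 colons and 10 of the 12 livers, gave 1.04 (SE 0.13, limma adjusted P = 1.38e-07) in 12 of 12 mice.

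Tfb2m, which with Polrmt and Tfam starts transcription of mitochondrial DNA, gave 0.71 (SE 0.32, limma adjusted P = 0.083) on its main probe. Much of that value rests on 1 mouse. Without the HF-low-suf mouse 2, whose liver value of 1.03 was then left out as well, it was 0.32. In the colon of that mouse, HF-low-suf replicate 2, the probe read -4.14, with a Cy3 signal of 121 against 908 to 1203 in the other 5 arrays of the group, while the second Tfb2m probe read -0.00 on that array. The second probe was 1.26-fold higher in the liver (log2 0.34, SE 0.09, limma adjusted P = 0.0030), in 11 of 12 mice.

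Ordered by mean, the 4 groups fell into a liver pair and a colon pair for every main probe. Neighbours within a pair differed by less than the larger of their SDs, except the colon groups of Akap1 and the liver groups of Esrra. Between the pairs, the step from the nearest liver to the nearest colon group exceeded the larger SD for Akap1, Ppargc1a, Ppargc1b, Esrra, Gabpa, Tfb1m and Polrmt and stayed below it for Nrf1, Tfam and Tfb2m.

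**Figure D2:**
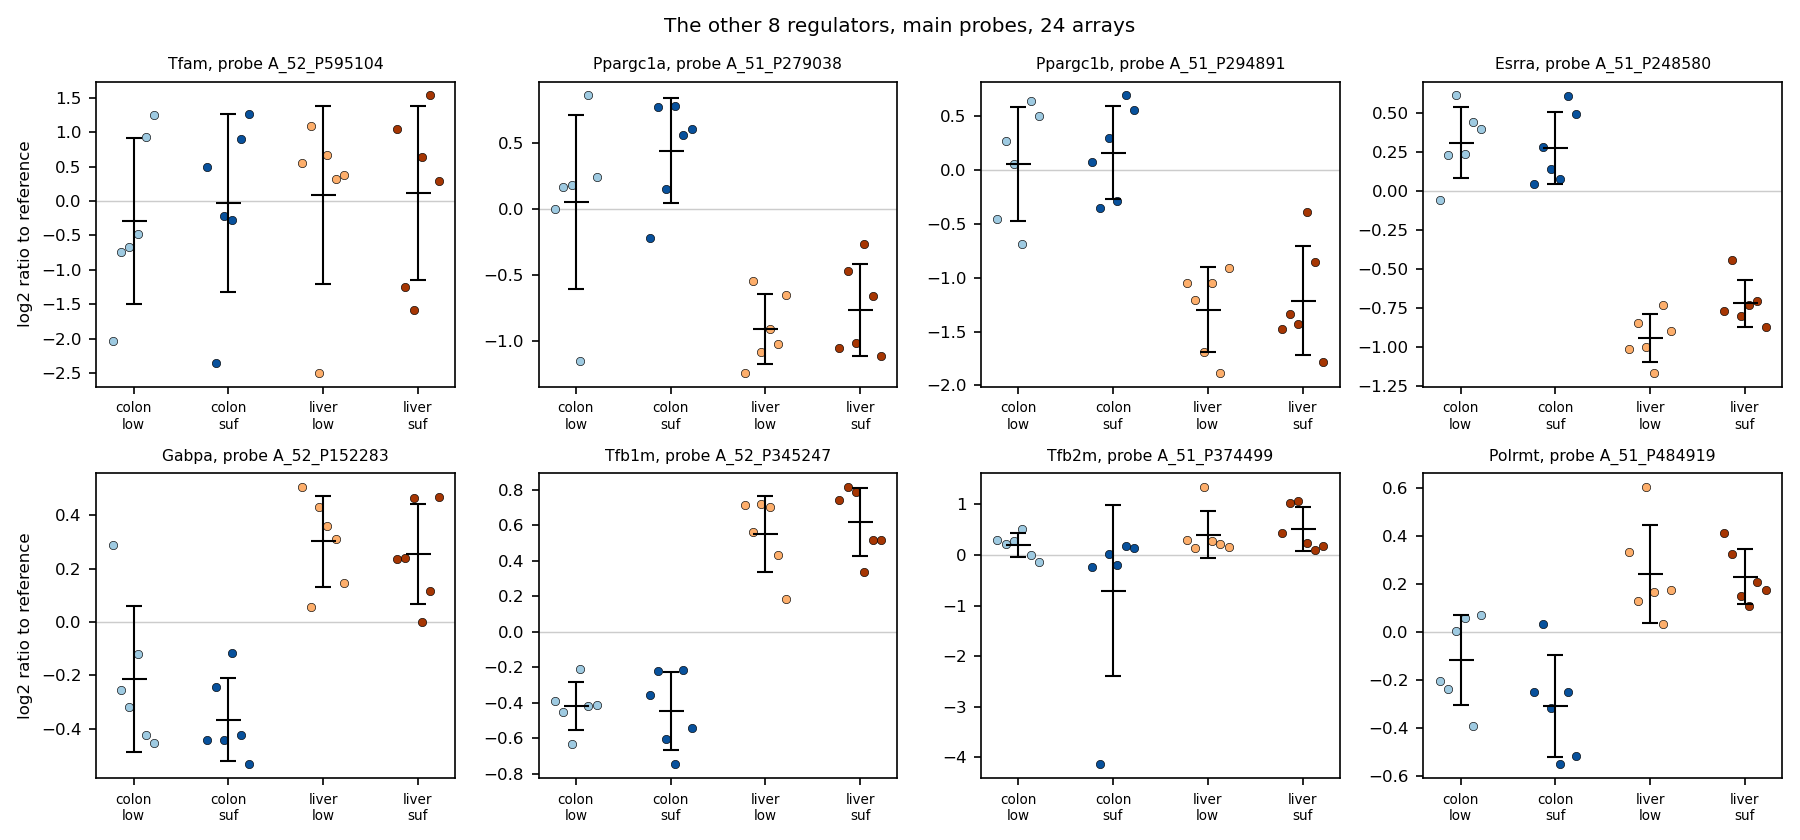
Log2 ratio to the reference pool on each of the 24 arrays for the main probes of the 8 genes other than Akap1 and Nrf1, in groups of 6 (low, HF-low-low; suf, HF-low-suf), with mean and SD; each panel has its own vertical scale. Esrra and Tfb1m split the tissues without overlap, and the Tfam probe spreads over several units in every group.

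The diets were compared within each tissue as HF-low-suf minus HF-low-low, a positive value meaning a higher level on the sufficient diet. This direction takes the mouse RNA to be in Cy3, as the labels and methods state. Probes past the study's threshold were mostly higher with HF-low-suf here, in the liver 40 against 8 lower. The study's tables print mostly negative signs for transcripts, and no transcript of those tables is given here. Its text has the myoglobin transcript higher on the adequate diet. Here Mb gave 0.65 (SE 0.48) in the liver, reading 0.73 in HF-low-suf replicate 2, the liver with skeletal muscle markers. In the other livers it read -2.94 to -1.78. The study's threshold was an unadjusted P below 0.01 with a fold change above 1.5. In the colon, 69 of 41174 probes, 0.168%, were past it, 66 of them (0.160% of all probes) higher and 3 lower with HF-low-suf, and none passed the Benjamini-Hochberg adjustment with limma (1228 had an unadjusted P below 0.05). Of the 23 probes, 2 were past it, the Akap1 and Nrf1 probes that the choice used, so the count says nothing further about the group. It was 0 without background correction or without single arrays of either diet, such as HF-low-low replicate 2 or HF-low-suf replicate 1.

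For the Akap1 probe that was picked, colon HF-low-low ranged from -1.17 over a median of -0.74 to -0.06 and colon HF-low-suf from -0.47 over -0.17 to 0.48. The groups overlapped, and the means were -0.69 ± 0.43 and -0.05 ± 0.36 (SD, n = 6). The difference was 0.63 (SE 0.21), or 1.55-fold, just past the fold limit of 1.5. The other Akap1 probes were on the other side of it, at 0.33 (SE 0.15, 1.26-fold) and 0.23 (SE 0.20, 1.17-fold), with the same sign. Within the first scan day the picked probe differed by 0.38 and within the second by 0.88.

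For the Nrf1 probe that was picked, colon HF-low-low ranged from -0.64 over -0.11 to 0.43 and colon HF-low-suf from 0.07 over 0.57 to 0.72. The difference was 0.59 (SE 0.18), or 1.51-fold, the nearest of all 23 probes to the fold limit. This probe was well above background on 2 of 6 colon HF-low-low and 5 of 6 colon HF-low-suf arrays. The main Nrf1 probe did not move with it, with colon means of -0.06 ± 0.23 and -0.09 ± 0.22 (SD, n = 6) and a difference of -0.02 (SE 0.15). Within the first scan day the picked probe differed by 0.89 and within the second by 0.29.

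**Figure D3:**
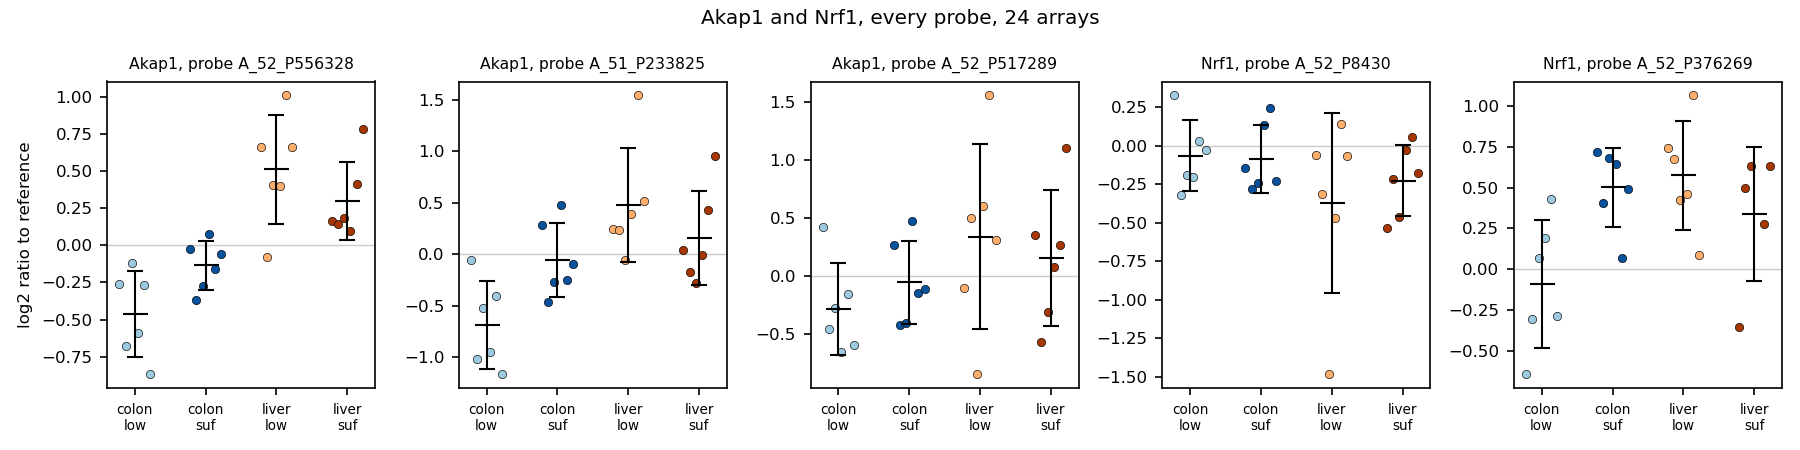
Log2 ratio to the reference pool on each of the 24 arrays for the 3 Akap1 probes and the 2 Nrf1 probes, in groups of 6 (low, HF-low-low; suf, HF-low-suf), with mean and SD; each panel has its own vertical scale. The 3 Akap1 probes rank the 4 groups in the same order, and the Nrf1 probes differ in the colon.

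The colon differences of the remaining genes are given without a test. Ppargc1a differed by 0.39 (SE 0.27) on its main probe and -0.03 (SE 0.25) on the second. Gabpa, Polrmt and Tfb1m differed by -0.15 (SE 0.15), -0.19 (SE 0.14) and -0.03 (SE 0.13), and Esrra by -0.03 (SE 0.15). Tfb2m differed by -0.90 (SE 0.56) on the main probe with the spot at -4.14 and by 0.10 (SE 0.13) on the second probe. Ppargc1b differed by 0.11 (SE 0.24) and Tfam by 0.26 (SE 0.58) on the bright probe and 0.00 (SE 0.14) on A_51_P493720.

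The liver diet comparison was not used to pick any gene and was tested. None of the 23 probes was past the threshold, against 48 of 41174 probes, 0.117%, on the whole array. With limma no probe of the array passed adjustment (877 had an unadjusted P below 0.05), and none of the 23 had an unadjusted P below 0.05. The 10 main probes lay between -0.21 and 0.22, with 7 above 0, a median of 0.08 and 0.01 over all probes. Precision differed between genes. The 95% confidence interval of the difference was -0.28 to 0.26 for Polrmt, -0.32 to 0.23 for Gabpa and -0.23 to 0.36 for Tfb1m, all within a fold of 1.5, and -1.32 to 1.37 for the bright Tfam probe.

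Akap1 in the liver ranged from -0.08 over 0.53 to 1.01 in HF-low-low and from 0.10 over 0.18 to 0.79 in HF-low-suf. The difference was -0.21 (SE 0.18, 95% confidence interval -0.60 to 0.18), with an unadjusted limma P of 0.26 and an exact permutation P of 0.29. The probe picked in the colon gave -0.32 (SE 0.26), so both had the opposite sign to the colon. The difference between the tissues was not tested, because it contains the colon contrast. Nrf1 gave 0.15 (SE 0.24) on its main probe and -0.24 (SE 0.21) on the other, where 1 of the 12 livers had no value because its spot was flagged.

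Esrra came nearest to a diet difference in the liver. It ranged from -1.17 over -0.95 to -0.73 in HF-low-low and from -0.87 over -0.75 to -0.44 in HF-low-suf. The groups overlapped, with replicate 2 highest among HF-low-suf livers. The difference was 0.22 (SE 0.12, unadjusted limma P = 0.086), the exact permutation P was 0.024 before any adjustment for the 10 genes, and it did not pass limma's adjustment over all probes. Without HF-low-suf replicates 1 and 2, the livers with brown fat and muscle markers, the difference was 0.16 (SE 0.13), and the part of those tissues in it was not tested. The second Esrra probe gave 0.01 (SE 0.22). Ppargc1a gave 0.15 (SE 0.18) and 0.25 (SE 0.17) on its probes. Ppargc1b gave 0.09 (SE 0.24).

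**Figure D4:**
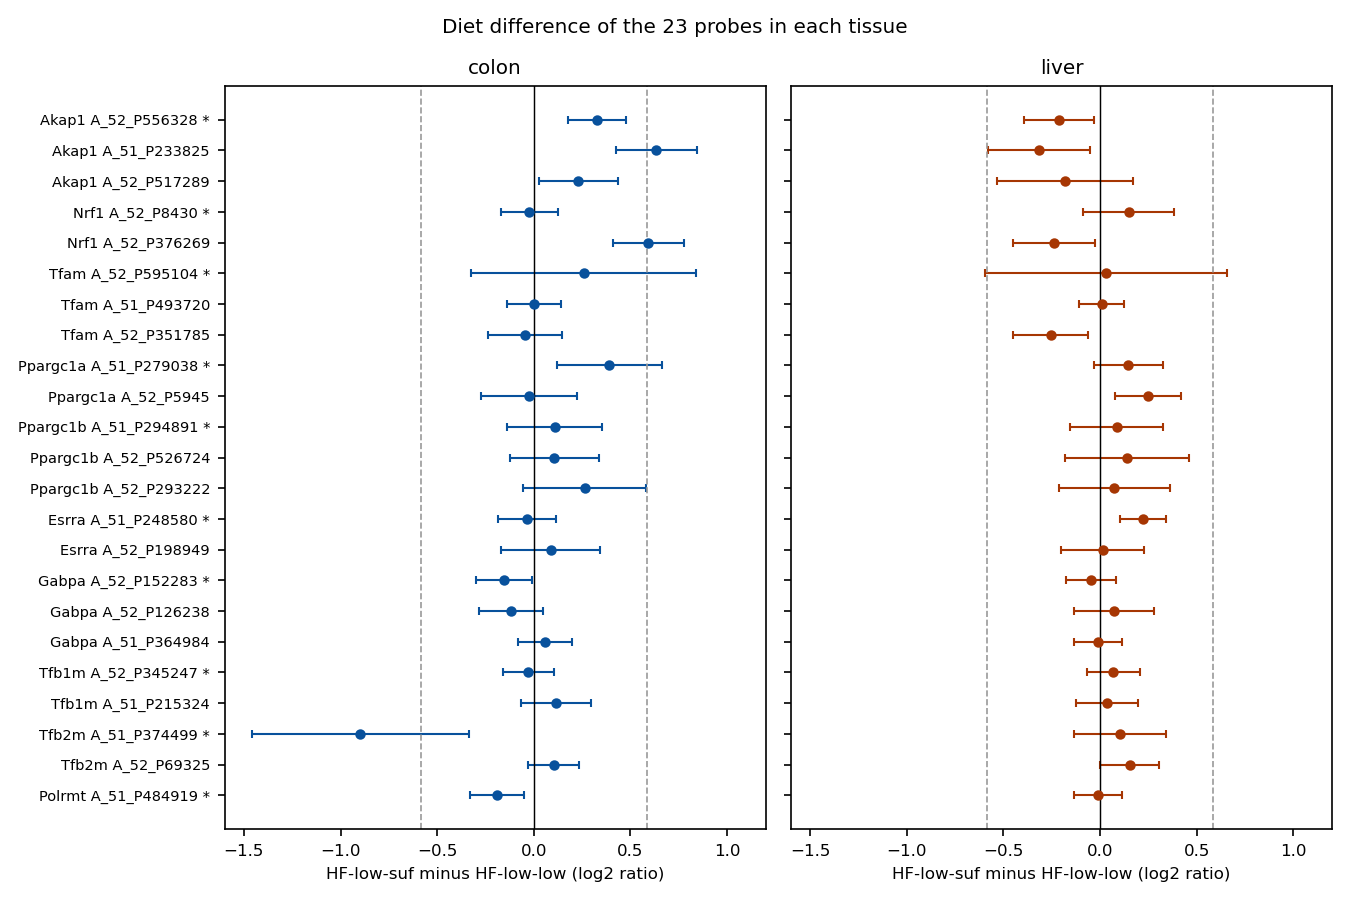
Difference between the diets (HF-low-suf minus HF-low-low, log2 ratio) with its standard error for all 23 probes in the colon (left) and liver (right); asterisks mark main probes and dashed lines a fold change of 1.5. In the colon the points of 1 Akap1 and 1 Nrf1 probe lie past the upper line and that of the main Tfb2m probe past the lower line, and in the liver none reaches a line.

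The genes around the 10 regulators were followed in 5 lists, each gene by its brightest probe. Between liver and colon, 9 of 16 genes that copy, transcribe or translate mitochondrial DNA or supply its nucleotides were higher in the liver and 1 was lower, with a median of 0.30 beside 0.02 over all probes, whereas with median centring 2 were higher and 3 lower with a median of 0.02. All counts of these lists stand beside 19.4% of all probes called higher and 19.0% called lower after loess, and 11.0% and 22.4% with median centring. The largest was Top1mt, the mitochondrial topoisomerase, at 1.68, and Gfm1, a mitochondrial elongation factor, gave 1.05, the helicase Peo1 0.66 and the single-strand binding protein Ssbp1 0.49. Polg2, the accessory subunit of the mitochondrial DNA polymerase, gave -0.26 and the catalytic subunit Polg gave 0.19 (limma adjusted P = 0.079).

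Respiratory and other nuclear genes listed as targets with NRF-1 or GABP sites were split, with 8 of 21 higher, 5 lower and a median of -0.00. With median centring, 2 were higher and 6 lower, with a median of -0.08. Whether the promoters of these genes hold the sites is not reported here. The share that was lower lay near that of all probes (19.0%), as did both shares with median centring (11.0% and 22.4%). Alas1, the first enzyme of heme synthesis, was highest in the liver, at 2.50, followed by the import receptor Tomm70a at 0.90. The lowest was Cox4i1, a subunit of cytochrome c oxidase, at -0.61, and Cox6a1 gave -0.48 and Cox5b -0.36. Subunits of succinate dehydrogenase were higher, Sdhb by 0.47 and Sdhd by 0.54, while Cycs, cytochrome c, gave -0.09 (limma adjusted P = 0.36).

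Among 21 partners and upstream regulators of the coactivators, 8 were lower in the liver and 4 higher, with a median of -0.19, and 8 lower and 2 higher with a median of -0.31 under median centring. The share that was higher lay near the 19.4% of all probes. Prkaa1, a catalytic subunit of the energy sensor AMPK, gave -1.77, Pparg -1.42 and Nrip1, a corepressor that opposes PGC-1alpha, -0.87. Sirt3, the mitochondrial deacetylase, was the highest at 1.82, and Ppara, the fatty acid receptor of hepatocytes, gave 0.94. Esrrb, at 0.74, was well above background on no array. Pprc1, the third member of the PGC-1 family, gave 0.05 (limma adjusted P = 0.81).

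Of 18 partners of Akap1 and relatives in protein kinase A anchoring, 7 were lower in the liver and 4 higher, with a median of -0.08, and 9 lower and 1 higher with a median of -0.36 under median centring. The share that was higher after loess lay near the 19.4% of all probes. The RII beta regulatory subunit Prkar2b gave -2.37 and the plasma membrane anchor Akap12 -2.29. Markers of cell types of the colon wall were lower in the liver as well, namely all 6 of smooth muscle (-6.51 to -1.81), all 4 of enteric neurons and glia (-3.54 to -1.38) and 4 of the 5 of fat (-5.93 to -1.32), while the fat marker Car3 was higher by 1.92. Their part in these values was not tested. Rab32, a small GTPase that itself anchors protein kinase A at mitochondria, gave 1.72 and Ptpn21, a phosphatase that binds Akap1, 0.60. The RII alpha subunit Prkar2a gave -0.31, and Dnm1l, the fission GTPase that protein kinase A phosphorylates, -0.04 (limma adjusted P = 0.81). Of 5 fusion and fission genes, the fusion GTPases Opa1, Mfn2 and Mfn1 were higher by 0.90, 0.65 and 0.19 and the protease Oma1 gave -0.28, whereas with median centring 1 of the 5 was higher and 2 were lower and the median turned from 0.19 to -0.21.

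**Figure D5:**
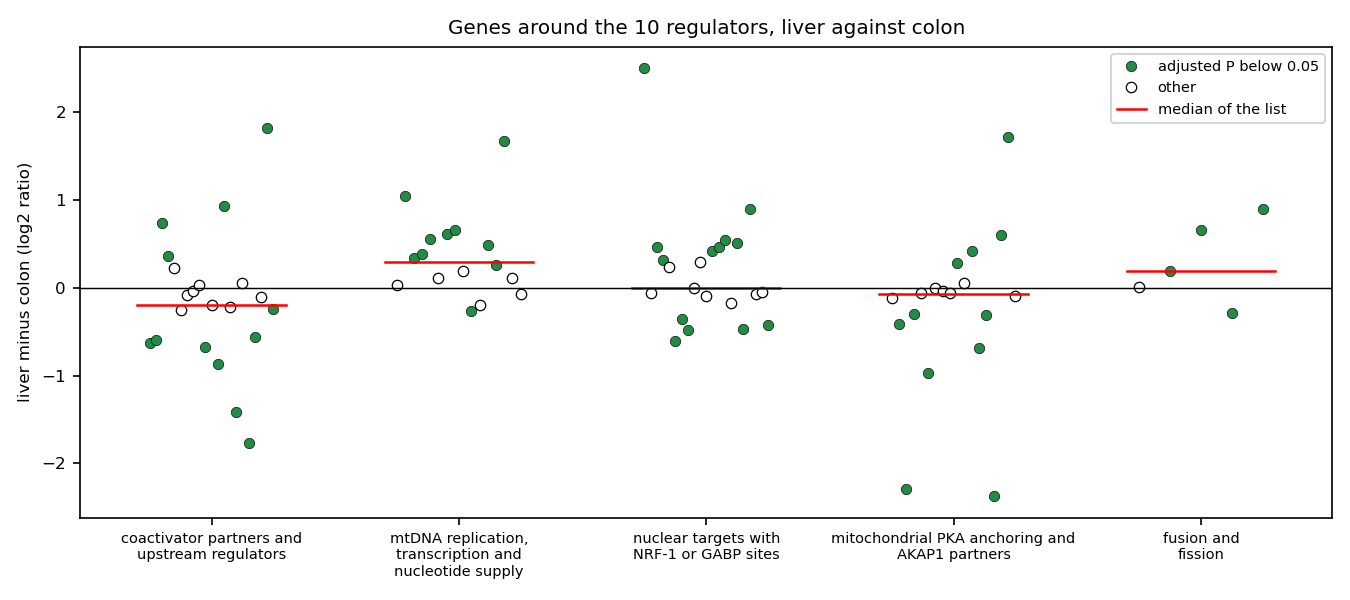
Liver minus colon log2 ratio of each gene in 5 lists around the 10 regulators, by list; green points have a limma adjusted P below 0.05, open points do not, and red lines are list medians, all after loess. The medians run from -0.19 for the partners and upstream regulators to 0.30 for the genes of mitochondrial DNA, and with median centring from -0.36 for the Akap1 partners to 0.02 for the genes of mitochondrial DNA.

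No gene of the 5 lists was past the threshold between the diets in either tissue. In the liver, 20 of the 21 genes listed as targets with NRF-1 or GABP sites were above 0. Their median was 0.20 and their range -0.05 (Tomm34) to 0.30 (Cox17), beside 51.4% of all probes above 0 and a median of 0.01. Without HF-low-suf replicate 2, the liver with skeletal muscle markers, 19 were above 0 with a median of 0.13, without replicate 1, the liver with fat markers, 19 with a median of 0.16, and without both 18 with a median of 0.12, an alternative added after seeing the data. The part of those tissues in the shift was not tested. The smallest unadjusted limma P among them was 0.083, for Atp5j, a subunit of ATP synthase, at 0.22 (SE 0.12). These genes share their arrays, and in the colon 15 of 21 were above 0 with a median of 0.04. Of all probes, 48.3% were above 0 in the colon, with a median of -0.01. The other 4 lists had liver medians between -0.03 and 0.03. Prkar2b had the highest liver difference of all list genes, 0.91 (SE 0.60), and was well above background in 6 of the 12 livers. It read 2.43 in HF-low-suf replicate 1 and between -2.31 and -0.54 in the other 11 livers, and without that replicate the difference was 0.29 (SE 0.33). Of the 5 adipose markers on the array, Cfd was well above background in 6 of the 12 livers and Car3 in 12, and Adipoq, Retn and Lep in 1, 2 and 0. Cfd gave a liver difference of 1.78 (SE 1.03), or 0.75 without the same replicate, and Car3 one of 0.08. Their part in the Prkar2b value was not tested. The lowest difference of all list genes was that of Akap11, -0.24 (SE 0.12).

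To describe which genes varied with Akap1 and Nrf1, each tissue's mean was subtracted and main probes were correlated over the 24 arrays among 10717 genes with a probe well above background on 6 or more of the 12 arrays of each tissue, a filter that the main Nrf1 probe itself did not meet. For Akap1 the highest Pearson correlations were with Eif4g2 (0.89), Gtf2h3 (0.88), Cul4a (0.87), Ugt2b34 (0.86) and Cct6b (0.85). For Nrf1 they were with Eftud1 (0.86), 4930504E06Rik (0.84), Tsc1 (0.83), Sephs2 (0.83) and Dync1li1 (0.83). None of these is one of the 10 regulators. Among the regulators, the correlations of Akap1 ran from -0.42 with Polrmt and -0.37 with Tfb1m to 0.20 with Gabpa and 0.27 with Nrf1. Those of Nrf1 ran from -0.49 with Polrmt to 0.45 with the bright Tfam probe. The arrays share slides, and these correlations are descriptions.

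Within the livers, Ppargc1a was set against the other 9 genes over the 12 mice, after the group comparisons had been seen. It fell as Gabpa rose, with Pearson's r of -0.88 (permutation P = 0.00040, adjusted over 9 relations 0.0036) and Spearman's rho of -0.82 (permutation P = 0.0018, adjusted 0.016). Leaving out the 2 livers with Ppargc1a farthest from its median gave an r of -0.90, and leaving out HF-low-suf replicates 1 and 2 one of -0.96. Within the first scan day r was -0.79 (exact permutation P = 0.078, n = 6) and within the second -0.95 (exact permutation P = 0.011, n = 6). The relation rests on the main probes: the other 5 pairs of Ppargc1a and Gabpa probes gave r from -0.46 to -0.16, and over the 12 colons r was -0.28 (permutation P = 0.35). The share of spots well above background correlated with Ppargc1a at 0.44 and with Gabpa at -0.37 over the same livers, and its part in the relation was not tested. With Ppargc1b, r was 0.66 (permutation P = 0.019, adjusted 0.086), and with the other 7 genes the adjusted P of r was 0.19 or more.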

How the data were processed

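RNA of whole colon and whole liver from 12 mice was measured on 24 two-colour arrays, on 6 slides of 4, with 6 arrays per group as the labels give them. The intensity values that the authors deposited are Feature Extraction's mean Cy3 and Cy5 signals and median local backgrounds per spot, before any normalization; software processed signals from the same files served as an alternative. Here the mean signals were background corrected (normexp, offset 50), 1639 control spots of 45018 and flagged outlier spots were left out, and ratios were then loess-normalized within arrays (limma 3.58.1, R 4.3.3). Spots of a probe were averaged, which gave 41174 probes.

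Each tissue's diets were compared by limma on 12 arrays, with the study's threshold, and liver with colon over all 24, treating mice as random blocks (consensus correlation 0.16 from duplicateCorrelation, with statmod 1.5.0). Single probes were also tested by two-sided exact permutation of the mice between diets (924 assignments) or of signs (4096 patterns). Pearson and Spearman correlations used 100000 resamples. The genes and lists were chosen with earlier results of these data known. By rule the text names the 10 regulators, list genes past a threshold or with the largest rise or fall of a list, and the 5 best correlates of Akap1 and of Nrf1. Of the list genes past the liver against colon threshold only some are named, and which ones, as well as Polg, Cycs, Pprc1, Dnm1l and Atp5j, which fall outside the rule, was decided after their values were seen. The fits were tested on simulated data. Mice were labelled as separate animals. Alternatives were other background corrections, median centring, Cy3 alone, outlier spots kept, a filter on dim probes, blocks, scan days, single diets, gene medians and leaving out arrays or mice, the list counts of the liver diets included. A sign change in a value that had no call counted as a reversal if the shift exceeded the standard error. The number of arrays limits precision. Gene positions are probe positions in build mm7; promoter windows are RefSeq's.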

Additional observations from a re-analysis of the deposited data

Results flagged for a closer look

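Of 52 groups of 6 values or fewer, the main probes of the 10 genes and 3 further probes in 4 groups each, 5 held 1 value far from the rest; chance marks about 1 group in 20. The main Tfb2m probe read -4.14 in colon HF-low-suf replicate 2, where the other 5 lay between -0.24 and 0.17. The same probe read 1.34 in liver HF-low-low replicate 3, against 0.13 to 0.29 in the others. In that liver the bright Tfam probe read -2.50, against 0.32 to 1.10. The second Akap1 probe, A_51_P233825, read 1.54 in liver HF-low-low replicate 5, where the others lay between -0.06 and 0.52. The Tfam probe A_51_P493720 read 0.45 in colon HF-low-low replicate 1, against -0.18 to 0.04.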

How the results depend on the processing

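None of the 23 probes was past the threshold between the liver diets under any alternative, left-out arrays included. Of the 10 main probes, 7 passed between liver and colon, and 7 to 9 did so under the alternatives other than median centring (4) and the HF-low-low mice alone (6, without Polrmt); with any 1 mouse left out it was 7. The mouse as a fixed replicate block and the fit with no replicate block also gave 7. Under median centring Akap1 gave 0.28, its probe A_51_P233825 0.29, Gabpa 0.16 and Polrmt 0.02, none past adjustment, and Tfam probe A_51_P493720 changed sign to -0.16. In the HF-low-suf mice alone A_51_P233825 gave 0.21, in a split that contains the colon diet contrast by which it was picked. Calls were gained by Nrf1 with the processed signals (-0.71), by Tfb2m without background correction (0.66) and with gene medians (0.52), and by Tfam with gene medians (0.50). The second Nrf1 probe gained one under 4 alternatives and Tfam probe A_51_P493720 under 5. By diet, the Nrf1 probe A_52_P376269 gave 0.67 in the HF-low-low and -0.14 in the HF-low-suf mice. This split contains the colon diet contrast by which the probe was picked (colon means -0.09 and 0.50) and was not tested.

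In the colon the 2 probes past the threshold were those picked by it. The number was 1 with plain background subtraction, median centring, the slide as a replicate block, the scan day as a block, within either scan day and with all 24 arrays in one fit, and 0 without background correction, with the processed signals and with gene medians, where the main Nrf1 value of -0.02 became 0.29. Leaving out 1 array gave 0 to 2: 0 without HF-low-low replicate 2 or 6 or HF-low-suf replicate 1 or 4, and 1 without HF-low-low replicate 1 or 4 or HF-low-suf replicate 3 or 6. Between diets, arrays on the same slide deviated together on some slides and apart on others (correlations from -0.57 to 0.64). Slides were not taken as pairs in the main fits, and a shared slide effect was not tested. Nrf1 and its second probe gave no value for dim-filtered livers. The main Nrf1 probe was well above background on 3 of the 12 livers, which limits what it can show there.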
